A study of Mus musculus with 12 samples.

Results

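The Serpin genes encode the serine protease inhibitors, a superfamily named in mouse by a clade letter and a number. The 63 genes described here are those whose RefSeq symbol starts with Serpin and that had at least 500 cytosine calls in each of 12 libraries of mouse cortex DNA; they are among 19826 genes that met that minimum. All 63 Serpin symbols found in the deposited tables met it, and 6 further symbols of the RefSeq list were not analysed here. Clade A had 25 genes, clade B 27, clade E 3, clades F and I 2 each, and clades C, D, G and H 1 each. RefSeq lists 61 as protein coding and 2, Serpina3h and Serpina4-ps1, as transcribed pseudogenes.

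A serpin offers its reactive loop to a protease as bait; once the loop is cut, the inhibitor refolds and holds the protease in an inactive complex. Clade A holds mostly secreted proteins made by the liver, clade B holds mostly proteins that stay inside cells, and a few members, such as the collagen chaperone Serpinh1 and the hormone carriers Serpina6 and Serpina7, do not inhibit proteases. In brain the family is best known for neuroserpin (Serpini1), which neurons secrete, for protease nexin 1 (Serpine2) and for Serpina3n, a gene that reactive astrocytes switch on.

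The quantity measured is non-CG methylation, abbreviated mCH: the share of cytosines outside the CG context that bisulfite sequencing reads as methylated, given here as a percentage of all such calls over a gene. In brain this mark builds up mainly in neurons after birth, is written by the methyltransferase Dnmt3a and tends to be high over genes that neurons do not use. All mice were of the C57BL/6 background and the tissue was cortex. At postnatal day 40 (P40) there were 4 libraries from mice labelled miR29 knockout (KO) and 4 from wild-type (WT) mice; at 4 months there were 2 from mice labelled Dnmt3a mi5, whose titles read DNMT3AmiR29MUT, and 2 from WT mice. The abbreviation mi5 is kept as given. The labels do not say which miR-29 genes the knockout lacks, in which cells, or how many mice went into a library, so the p-values speak only of the spread among these libraries, which may be technical. Cortex is a mixture of cell types, and a change in their proportions and a change of the mark within a type cannot be told apart in these data.

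MicroRNAs of the miR-29 family repress Dnmt3a messenger RNA, and miR29 is named in the labels of both mutants, so their mature sequences are shown (RefSeq, GRCm38.p6, 5′ to 3′). The seed, bases 2 to 8, is in capitals and is the same in all 3.
miR-29a-3p: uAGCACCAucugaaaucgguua
miR-29b-3p: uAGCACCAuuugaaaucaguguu
miR-29c-3p: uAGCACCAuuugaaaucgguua

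Many serpins arose by recent duplication, and reads from near-identical copies may be assigned to the wrong one. Start windows of 250 bases before and 50 after the RefSeq gene start were held for 52 of the 63 genes; of 1326 pairs, 20 aligned over at least 200 bases with 90% identity or more, and they involved 14 genes. These were Serpina1a to Serpina1e, Serpina3c with Serpina3n, Serpinb3a, Serpinb3b and Serpinb3c, and Serpinb9d to Serpinb9g. The closest pair, Serpinb9e and Serpinb9f, was 99.3% identical. Calls for these 14 genes may therefore be uncertain between copies. The windows cover gene starts only, and how reads were placed was not examined. The 11 genes without a window were not compared. Below are 130-base stretches of the start windows, all before the start (RefSeq, GRCm38.p6). They come from the 2 sets that hold the largest and the smallest P40 effect of the family. The copies of a set were lined up without gaps, and capitals mark positions at which they then differ. A run of bases that is shifted between copies therefore counts as several differing positions.
The Serpina1 copies, all on the minus strand (Serpina1a at chr12:103863625-103863754, Serpina1b at chr12:103738200-103738329, Serpina1c at chr12:103904962-103905091, Serpina1d at chr12:103773634-103773763 and Serpina1e at chr12:103956960-103957089), differ at 18 of the 130 positions.
Serpina1a: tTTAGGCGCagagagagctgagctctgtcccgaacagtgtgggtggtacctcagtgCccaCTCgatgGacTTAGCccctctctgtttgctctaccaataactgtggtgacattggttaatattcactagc
Serpina1b: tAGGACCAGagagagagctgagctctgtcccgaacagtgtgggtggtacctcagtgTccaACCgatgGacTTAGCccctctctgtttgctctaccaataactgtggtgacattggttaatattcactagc
Serpina1c: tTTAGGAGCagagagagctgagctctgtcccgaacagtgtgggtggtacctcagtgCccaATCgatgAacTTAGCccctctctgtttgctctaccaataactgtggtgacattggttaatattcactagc
Serpina1d: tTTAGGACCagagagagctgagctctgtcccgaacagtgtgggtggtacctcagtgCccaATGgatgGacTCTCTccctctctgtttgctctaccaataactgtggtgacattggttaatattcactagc
Serpina1e: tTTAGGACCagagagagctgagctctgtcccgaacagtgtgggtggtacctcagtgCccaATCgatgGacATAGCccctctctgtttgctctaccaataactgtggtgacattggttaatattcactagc
The Serpinb9 copies, all on the plus strand (Serpinb9e at chr13:33249478-33249607, Serpinb9f at chr13:33323932-33324061 and Serpinb9g at chr13:33484656-33484785), differ at 8 of the 130 positions.
Serpinb9e: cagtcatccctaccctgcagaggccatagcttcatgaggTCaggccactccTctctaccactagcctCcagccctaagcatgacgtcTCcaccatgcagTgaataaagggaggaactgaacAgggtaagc
Serpinb9f: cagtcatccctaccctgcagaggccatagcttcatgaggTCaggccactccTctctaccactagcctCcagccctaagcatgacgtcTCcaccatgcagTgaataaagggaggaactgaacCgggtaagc
Serpinb9g: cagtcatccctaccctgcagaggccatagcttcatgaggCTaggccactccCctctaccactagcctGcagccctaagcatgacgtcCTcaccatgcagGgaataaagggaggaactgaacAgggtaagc
On the strand shown, the Serpina1 stretches hold 28 to 30 cytosines outside CG, the positions where mCH can be read, and 1 to 3 CGs; the Serpinb9 stretches hold 40 such cytosines and 1 or 2 CGs. The measurements themselves cover whole genes, not these stretches.

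Total calls over all genes ran from 399563492 to 732985426 per library, and the Serpin gene of median coverage received 6838 to 8487 of them at P40 and 3755 to 4849 at 4 months. The least covered member was Serpina7, with 952 to 4923 calls. KO replicate 4 had the lowest mean gene level of the KO libraries, 1.72% against 2.15% to 2.46% in the others. In 1 library of each group (KO replicate 3, P40 WT replicate 2, mi5 replicate 1 and 4-month WT replicate 2) calls on Y-linked genes were low, at 1.01 to 2.04 of every 1e6 calls, against 40.6 to 47.9 elsewhere. Of the marker genes looked up to describe the tissue, 5 of 6 neuronal genes (Snap25, Syt1, Rbfox3, Camk2a and Slc17a7) had means of 0.692% to 1.23% in the KO and 0.605% to 0.838% in P40 WT, and the sixth, Gad1, had 2.81% in the KO and 1.70% in P40 WT. The 3 astrocyte genes (Gfap, Aqp4 and Aldh1l1) had 3.56% to 4.02% in the KO and 1.98% to 2.43% in P40 WT.

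At P40 the question was whether mCH over the Serpin genes differed between miR29 KO and WT cortex. It was higher in the KO for 56 of the 63 genes and lower for none (quasi-likelihood logistic model of the calls with limma-moderated dispersion, Benjamini-Hochberg adjusted p under 0.05 over all 19826 genes). Of all genes tested, 76.5% were higher and 0.0454% lower, so the Serpin count is read against a change that most genes shared. Adjusted p of the 56 genes ran from 5.71e-05 to 0.0286. The effect is a log2 odds ratio of methylated against unmethylated calls. It was positive for all 63 genes, and for 95.9% of all genes tested. The range was 0.07 to 1.60 and the median 0.77, against a median of 0.65 for all genes. Of the 63, 46 lay above that general median. The median Serpin gene had a level of 2.79% in the KO and 1.56% in WT; for all genes the medians were 2.09% in the KO and 1.31% in WT. In 40 of the 63 genes every KO library lay above every WT library, while 57.1% of all genes showed this.

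**Figure D1:**
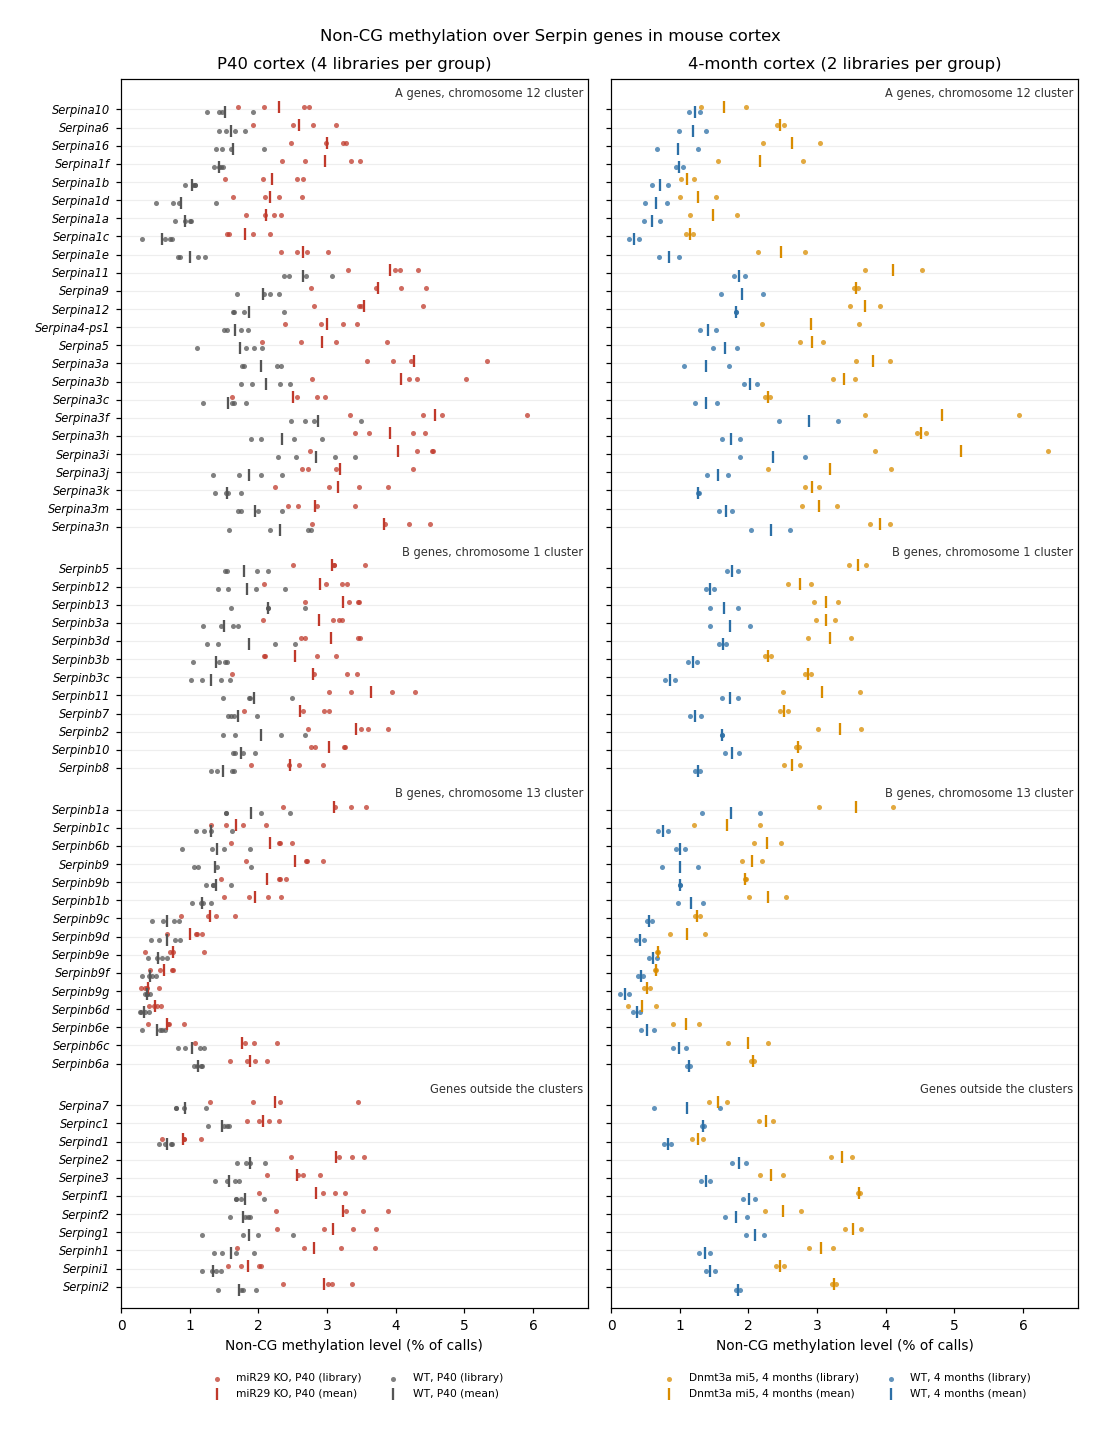
Non-CG methylation level in percent of calls (horizontal axis) of 62 Serpin genes (rows) in every library (dots) with group means (vertical ticks), at P40 on the left and at 4 months on the right, mutant above WT within each row. Mutant means lie right of WT means in all 62 rows of both panels, and at P40 the lowest group means are those of Serpinb9e to Serpinb6e, under 0.8% in both groups.

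The 6 serpins known from brain and vessel wall that are described here were all higher in the KO. Serpini1, which inhibits tissue plasminogen activator (Plat) around neurons, had 2.04%, 2.02%, 1.75% and 1.56% in the KO libraries, against 1.18%, 1.46%, 1.32% and 1.39% in WT. The groups did not overlap, but the gap between the lowest KO and the highest WT library was small, and the log2 odds ratio of 0.49 (SE 0.13; limma-moderated fit, adjusted p = 0.00268) was the smallest of the 56 called and below that of the median gene. Serpine2, which inhibits thrombin and plasminogen activators, had 3.36%, 3.54%, 3.17% and 2.48% in the KO and 1.69%, 2.10%, 1.88% and 1.82% in WT. Its libraries were also fully apart, with a log2 odds ratio of 0.78 (SE 0.12; limma-moderated fit, adjusted p = 5.71e-05). Serpina3n had 4.50%, 3.85%, 4.20% and 2.78% in the KO and 2.17%, 2.77%, 2.72% and 1.57% in WT, and its log2 odds ratio was 0.77 (SE 0.17). KO replicate 4 lay only just above the highest WT library there.

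The other 3 of these genes had overlapping groups, with KO replicate 4 the lowest KO library in each, yet passed the test. Serping1, the inhibitor of complement C1, had 3.72%, 3.38%, 2.96% and 2.28% in the KO and 1.18%, 2.51%, 1.77% and 2.0% in WT (log2 odds ratio 0.78, SE 0.19). Serpinf1, the secreted antiangiogenic factor PEDF, averaged 2.83% ± 0.563 in the KO and 1.80% ± 0.194 in WT (SD, n = 4 each; log2 odds ratio 0.70). Serpinh1, which helps collagen fold in the endoplasmic reticulum, averaged 2.82% ± 0.861 in the KO and 1.61% ± 0.251 in WT (SD, n = 4 each; log2 odds ratio 0.86).

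Among the plasma serpins described here the log2 odds ratio ran from 0.48 (Serpind1) to 1.60 (Serpina1c), against 0.07 to 1.60 for the 63 genes. Serpinc1, antithrombin, had 2.30%, 2.01%, 2.15% and 1.83% in the KO and 1.55%, 1.5%, 1.57% and 1.27% in WT; its log2 odds ratio of 0.50 (SE 0.12; limma-moderated fit, adjusted p = 0.00121) was small and its groups were apart. Serpind1, heparin cofactor II, had 1.16%, 0.921%, 0.922% and 0.601% in the KO and 0.634%, 0.731%, 0.741% and 0.550% in WT and was not called (log2 odds ratio 0.48, SE 0.23; limma-moderated fit, adjusted p = 0.0581). Its RefSeq interval overlaps Pi4ka, whose calls it may share, and without KO replicate 4 it passed the test (log2 odds ratio 0.61). Serpinf2, the plasmin inhibitor, was higher, with 3.89%, 3.53%, 3.27% and 2.26% in the KO and 1.58%, 1.84%, 1.89% and 1.81% in WT (log2 odds ratio 0.89, SE 0.17).

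Serpina7, the thyroxine-binding globulin, lies on the X chromosome and had the fewest calls. Its level was 2.31%, 3.45%, 1.29% and 1.92% in the KO and 1.23%, 0.914%, 0.798% and 0.796% in WT (log2 odds ratio 1.15, SE 0.35; limma-moderated fit, adjusted p = 0.00555). The groups met within a narrow margin: KO replicate 3, the KO library with few Y-linked calls, had 1.29% with a 95% Wilson interval of 1.01% to 1.66%, and WT replicate 1 had 1.23% with 0.837% to 1.81%. Such intervals cover counting error only. Without the libraries with few Y-linked calls the log2 odds ratio was 1.51.

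The 5 Serpina1 copies, which encode alpha-1-antitrypsin, the liver's inhibitor of neutrophil elastase, had low WT levels and large changes. Serpina1c had 2.16%, 1.55%, 1.92% and 1.57% in the KO and 0.646%, 0.749%, 0.714% and 0.307% in WT, and its log2 odds ratio of 1.60 (SE 0.23; limma-moderated fit, adjusted p = 5.71e-05) was the highest of the 63 genes. Serpina1e had 3.02%, 2.71%, 2.56% and 2.33% in the KO and 0.832%, 1.22%, 1.12% and 0.866% in WT (1.42, SE 0.18). Serpina1d had 2.64%, 1.63%, 2.30% and 2.10% in the KO and 0.760%, 1.38%, 0.852% and 0.513% in WT (1.29, SE 0.24). In each of these copies the lowest KO library lay above the highest WT library, by the least in Serpina1d. Serpina1a averaged 2.12% ± 0.222 in the KO and 0.937% ± 0.105 in WT (SD, n = 4 each; log2 odds ratio 1.19), and Serpina1b 2.20% ± 0.523 in the KO and 1.03% ± 0.0666 in WT (1.11).

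Since the copies share sequence, their 5 values are not 5 independent observations. Without Serpina1a to Serpina1e, 51 of 58 Serpin genes were higher and the median log2 odds ratio was 0.76, against 76.5% and 0.65 for all genes. The related gene Serpina1f, next to the copies on the chromosome and not among the near-identical pairs, had 3.35%, 3.48%, 2.68% and 2.35% in the KO and 1.46%, 1.49%, 1.35% and 1.43% in WT. Its WT level was above that of all 5 copies, and its log2 odds ratio was 1.07 (SE 0.18).

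The 10 Serpina3 genes, a rodent expansion of the locus of human alpha-1-antichymotrypsin, included the genes with the highest P40 WT means of the family, Serpina3f and Serpina3i, while Serpina3c and Serpina3k were near the family's median. Serpina3f had 5.91%, 4.67%, 4.40% and 3.33% in the KO and 2.68%, 3.50%, 2.82% and 2.48% in WT, and Serpina3i 4.31%, 4.55%, 4.53% and 2.75% in the KO and 3.11%, 2.55%, 3.41% and 2.29% in WT. In both genes KO replicate 4 fell within the WT range. All 10 were higher in the KO, with a median level of 3.88% in the KO and 2.08% in WT and a median log2 odds ratio of 0.77. Serpina3a, at 5.33%, 3.96%, 4.22% and 3.58% in the KO and 1.77%, 2.33%, 2.27% and 1.80% in WT, had the largest effect among them (1.11, SE 0.16).

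**Figure D2:**
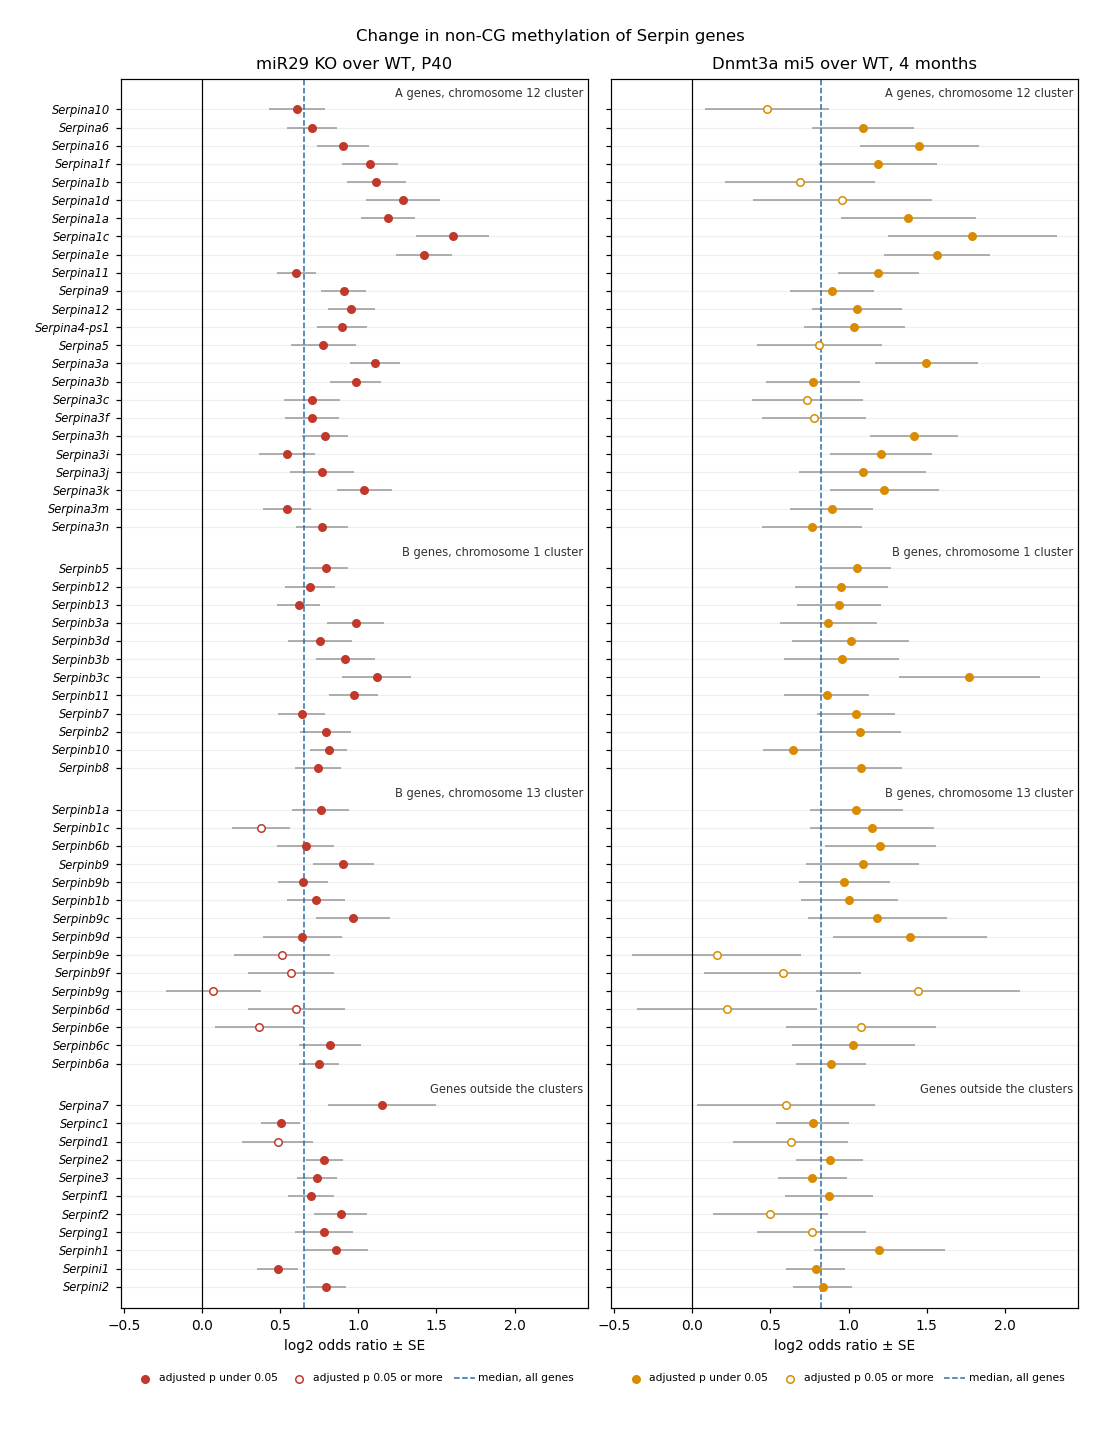
Log2 odds ratio with its standard error (horizontal axis) of 62 Serpin genes (rows) for miR29 KO over WT at P40 on the left and Dnmt3a mi5 over WT at 4 months on the right; filled points have an adjusted p under 0.05, and the dashed line is the median of all 19826 genes. Serpina1c stands farthest right in both panels, and all points lie above 0.

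All 25 clade A genes were higher, with a median log2 odds ratio of 0.90, and 21 of 27 clade B genes, with a median of 0.74. Among all genes 76.5% were higher, with a median of 0.65. Of the clade B genes, all 12 in the chromosome 1 cluster were higher (median 0.79), as against 9 of 15 in the chromosome 13 cluster (median 0.65). Among the small clades, both genes of clade F and both of I, and the single genes of C, G and H were higher, and Serpind1 of clade D was not. No test was made between clades, since genes of a clade share clusters and sequence.

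The 6 clade B genes that were not called, Serpinb1c, Serpinb9e, Serpinb9f, Serpinb9g, Serpinb6d and Serpinb6e, all lie in the chromosome 13 cluster. Most of the Serpinb9 genes are mouse relatives of the human granzyme B inhibitor. Serpinb9g had 0.385%, 0.354%, 0.548% and 0.298% in the KO and 0.372%, 0.426%, 0.353% and 0.381% in WT, the smallest effect of the family (log2 odds ratio 0.07, SE 0.30; limma-moderated fit, adjusted p = 0.840). Serpinb9e had 0.759%, 0.716%, 1.22% and 0.350% in the KO and 0.600%, 0.668%, 0.518% and 0.395% in WT (0.51, SE 0.31). Serpinb6d had 0.487%, 0.524%, 0.577% and 0.414% in the KO and 0.282%, 0.407%, 0.288% and 0.351% in WT (0.60, SE 0.31), so that its groups were just apart. Serpinb9f and Serpinb6e averaged 0.624% ± 0.154 and 0.675% ± 0.220 in the KO and 0.423% ± 0.0839 and 0.527% ± 0.154 in WT (SD, n = 4 each).

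At these levels few methylated calls stand behind a value: Serpinb9g had 31 of 8060 calls in KO replicate 1, a 95% Wilson interval of 0.271% to 0.545%, and 32 of 8609 in WT replicate 1, with 0.263% to 0.524%. The 1st percentile of gene levels, which shows where the lowest genes of a library lie, was 0.258% to 0.287% in the KO libraries and 0.227% to 0.258% in P40 WT. Subtracting it as a background turned the effect of Serpinb9g to -0.23. What part of these low levels is incomplete conversion was not tested. Serpinb1c differed from the others in having a level near that of the average gene, at 2.11%, 1.77%, 1.52% and 1.32% in the KO and 1.21%, 1.32%, 1.62% and 1.09% in WT (log2 odds ratio 0.37, SE 0.19; limma-moderated fit, adjusted p = 0.0714), and its groups overlapped.

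Leaving out single libraries changed few P40 calls. Of the 56 genes, 55 stayed called without any 1 of the 12 libraries; the exception was Serpinb9d, which averaged 1.01% ± 0.232 in the KO and 0.664% ± 0.196 in WT (SD, n = 4 each; adjusted p = 0.0286 in the limma-moderated fit) and lost its call without 5 of them in turn. Without KO replicate 4 the count was 61, and over all genes the count higher in the KO rose from 15167 to 16003. Measured from the shift that all genes of a library share, by a logistic model with the library median as an offset, added after the data had been seen, 3 Serpin genes were higher in the KO and 0 lower, while 1% of all genes were higher and 3.59% lower. These were Serpina1c (log2 odds ratio from the shift 0.91, SE 0.19; adjusted p = 0.00840), Serpina1e (0.70, SE 0.15; adjusted p = 0.00822) and Serpina3a (0.43, SE 0.12; adjusted p = 0.0359). When libraries were centred on their medians and tested with limma, 0 Serpin genes were called, and 0 of all 19826 genes. That count therefore does not set the family apart.

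Most Serpin genes stand in 3 clusters, and the order of genes within them was taken from RefSeq. The clade A cluster on chromosome 12 has 24 neighbouring genes, the chromosome 1 cluster 12 clade B genes, and the chromosome 13 cluster 15 clade B genes with the gene Gm6093 between Serpinb9g and Serpinb6d; the remaining 12 genes are elsewhere. On chromosome 12 the P40 WT level dropped in the Serpina1 run. Serpina1f before it had 2.97% in the KO and 1.43% in WT, the run of Serpina1b, Serpina1d, Serpina1a, Serpina1c and Serpina1e had 1.80% to 2.65% in the KO and 0.604% to 1.03% in WT, and Serpina11 after it had 3.92% in the KO and 2.65% in WT. In both groups all 5 copies lay below Serpina1f and Serpina11.

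On chromosome 13 a run of genes near the end of the cluster had the lowest levels. Serpinb1a, at the start, had 3.10% in the KO and 1.89% in WT. The 5 genes from Serpinb9e to Serpinb6e had 0.396% to 0.760% in the KO and 0.332% to 0.545% in WT, and Gm6093 among them 0.375% in the KO and 0.263% in WT. Serpinb6c and Serpinb6a, at the end, had 1.77% and 1.87% in the KO and 1.03% and 1.13% in WT. Serpinb6a, a widely expressed inhibitor of trypsin-like proteases and of cathepsin G, had the most calls of the family, and its RefSeq interval overlaps Nqo2, Ripk1 and 1110046J04Rik, which had similar levels of 1.89%, 1.89% and 1.90% in the KO and 1.08%, 1.05% and 1.22% in WT. Shared calls may contribute to this likeness and were not tested.

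The chromosome 1 cluster had no such run of low genes. Its genes, among them Serpinb5 (maspin) and Serpinb2 (plasminogen activator inhibitor 2), had group means of 2.46% to 3.65% in the KO and 1.31% to 2.14% in WT. As a description with no test, P40 WT levels of next neighbours differed by a median of 0.109 percentage points on chromosome 13 and 0.333 on chromosome 12, against 0.521 and 0.608 for any pair of genes of the same cluster; on chromosome 1 the medians were 0.310 for neighbours and 0.291 for any pair. The 5 genes on each side of the clusters had median WT levels of 1.51% on chromosome 12, 1.49% on chromosome 1 and 1.07% on chromosome 13, beside 1.70%, 1.77% and 1.03% for the cluster members.

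**Figure D3:**
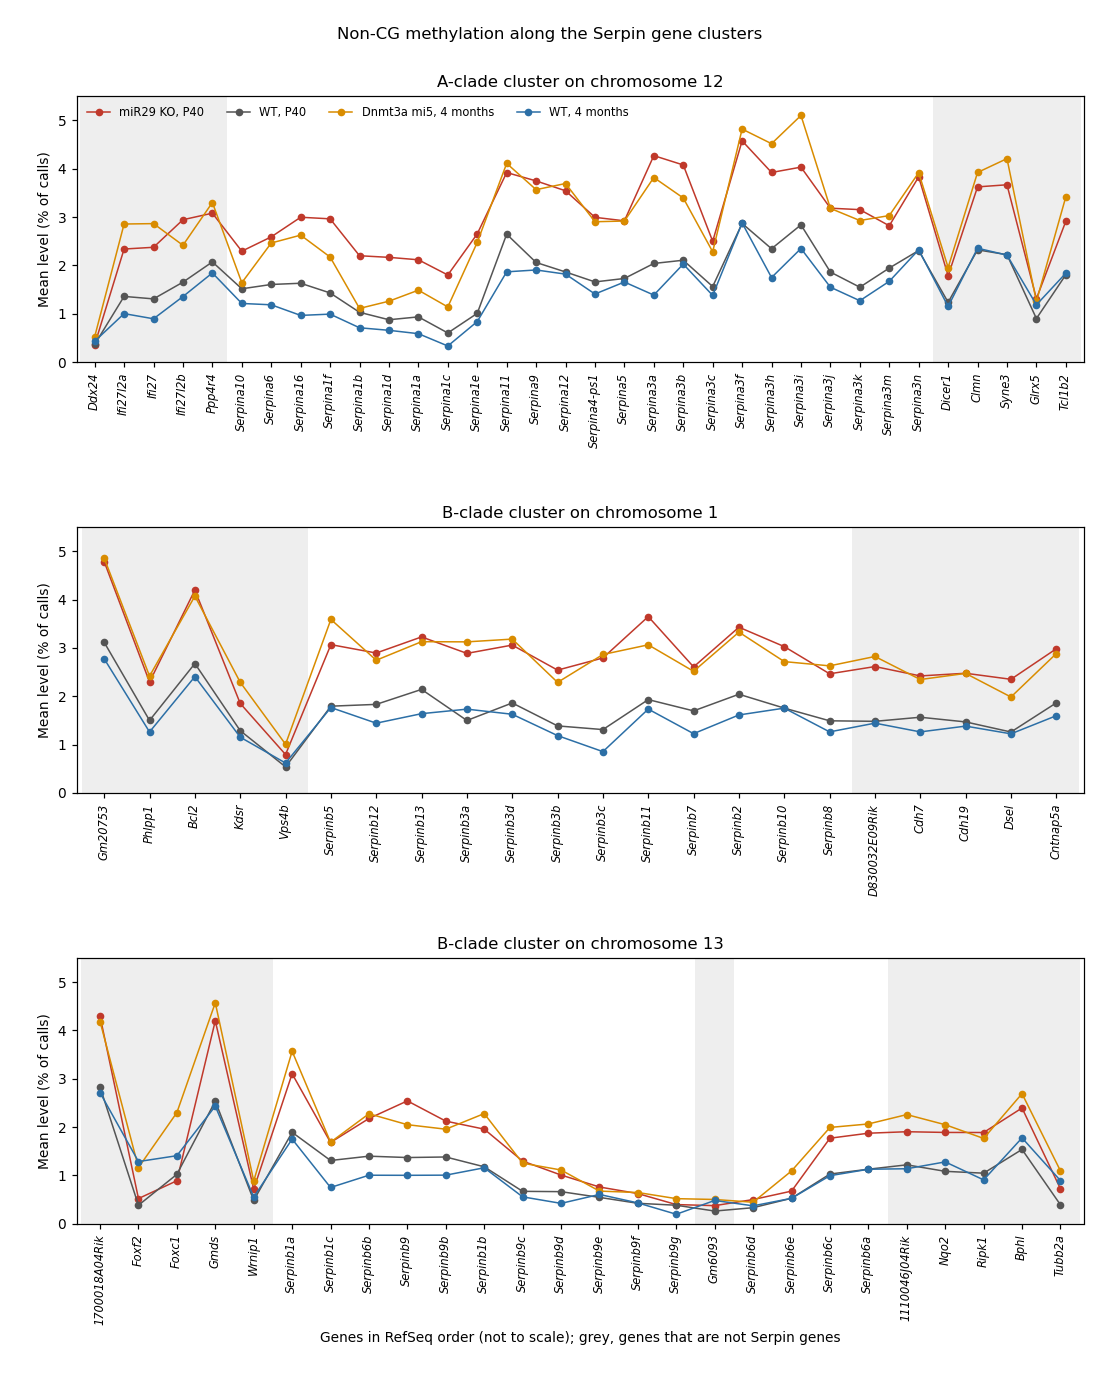
Mean non-CG methylation level in percent of calls (vertical axis) of genes in RefSeq order (horizontal axis, not to scale) along the 3 Serpin clusters, for miR29 KO, P40 WT, Dnmt3a mi5 and 4-month WT; grey bands mark genes that are not Serpin genes. In all 4 groups Serpina1a to Serpina1d are below every other Serpin gene of the chromosome 12 cluster except Serpina1e, and the genes from Serpinb9e to Serpinb6e on chromosome 13 have means of at most 1.09%.

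At 4 months the question was the same for Dnmt3a mi5 and WT cortex. mCH was higher in mi5 for 47 of the 63 genes and lower for none, against 58.8% higher and 0% lower among all genes. The log2 odds ratio was again positive for all 63 genes, and for 95.9% of all genes tested. It ran from 0.16 to 1.79, with a median of 0.97 against 0.83 for all genes. The median Serpin gene had a level of 2.63% in mi5 and 1.36% in WT; for all genes the medians were 2.22% in mi5 and 1.23% in WT. In 61 genes both mi5 libraries lay above both WT libraries, as they did in 86.2% of all genes; the exceptions were Serpina7 and Serpinb6d. Adjusted p of the 47 genes ran from 0.00300 to 0.0465. With 2 libraries a group, each call rests on a spread shared with the P40 libraries.

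Of these 6 neuronal and vascular genes, 5 were called. Serpini1 was higher, at 2.52% and 2.41% in mi5 and 1.38% and 1.51% in WT (log2 odds ratio 0.79, SE 0.19; limma-moderated fit, adjusted p = 0.00359). Serpine2 was higher too, at 3.20% and 3.51% in mi5 and 1.76% and 1.97% in WT (0.88, SE 0.21), as were Serpina3n, at 4.07% and 3.78% in mi5 and 2.04% and 2.61% in WT (0.77, SE 0.32; limma-moderated fit, adjusted p = 0.0465), Serpinf1 (0.87, SE 0.28) and Serpinh1 (1.20, SE 0.42). Serping1 had 3.41% and 3.64% in mi5 and 2.23% and 1.96% in WT and was not called (0.76, SE 0.35; limma-moderated fit, adjusted p = 0.0661). Its mi5 libraries were above WT, so a missing call does not show an unchanged level.

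Of the plasma serpins, Serpinc1 was higher, at 2.16% and 2.35% in mi5 and 1.35% and 1.32% in WT (log2 odds ratio 0.77, SE 0.23). Serpind1, at 1.18% and 1.34% in mi5 and 0.877% and 0.770% in WT, was not called (0.63, SE 0.37), nor was Serpinf2, at 2.24% and 2.77% in mi5 and 1.98% and 1.65% in WT (0.50, SE 0.37). Serpina7 had 1.42% and 1.68% in mi5 and 1.59% and 0.623% in WT, with overlapping groups (0.60, SE 0.57); without WT replicate 2, a library with few Y-linked calls, its log2 odds ratio was -0.10.

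Of the Serpina1 copies, 3 of 5 were called. Serpina1c had 1.09% and 1.19% in mi5 and 0.264% and 0.406% in WT, again the highest effect of the family (log2 odds ratio 1.79, SE 0.54; limma-moderated fit, adjusted p = 0.010). Serpina1e had 2.82% and 2.14% in mi5 and 0.694% and 0.985% in WT (1.57, SE 0.34), and Serpina1a 1.83% and 1.15% in mi5 and 0.474% and 0.704% in WT (1.38, SE 0.43). Serpina1b, at 1.02% and 1.20% in mi5 and 0.594% and 0.828% in WT, and Serpina1d, at 1.52% and 1.0% in mi5 and 0.499% and 0.819% in WT, did not pass (adjusted p = 0.211 and 0.148 in the limma-moderated fit). All 5 had both mi5 libraries above both WT libraries.

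Other large effects at 4 months were those of Serpinb3c, a relative of the human squamous cell carcinoma antigens, with 2.91% and 2.82% in mi5 and 0.779% and 0.931% in WT (log2 odds ratio 1.77, SE 0.45), Serpina3a, with 4.07% and 3.57% in mi5 and 1.06% and 1.71% in WT (1.5, SE 0.33), and Serpina16, with 2.21% and 3.05% in mi5 and 1.27% and 0.668% in WT (1.45, SE 0.38). In all 3 genes the mi5 libraries were well above the WT libraries. The smallest effects were those of Serpinb9e, with 0.666% and 0.684% in mi5 and 0.547% and 0.665% in WT (0.16, SE 0.54), Serpinb6d, with 0.648% and 0.242% in mi5 and 0.424% and 0.317% in WT (0.22, SE 0.57), and Serpina10, the inhibitor of factors Xa and XIa, with 1.97% and 1.32% in mi5 and 1.13% and 1.3% in WT (0.48, SE 0.40). None of these 3 was called.

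The 5 low genes of the chromosome 13 cluster were not called at 4 months either, with group means of 0.445% to 1.09% in mi5 and 0.196% to 0.606% in WT. By cluster, 18 of 24 genes on chromosome 12, all 12 on chromosome 1, 10 of 15 on chromosome 13 and 7 of the 12 scattered genes were higher, with median log2 odds ratios of 1.07, 0.99, 1.05 and 0.77. By clade the counts were 18 of 25 for A, 22 of 27 for B, 1 of 2 for F, 2 of 2 for I, and 1 of 1 for C and H, with none for D and G. Among all genes 58.8% were higher, with a median of 0.83, and no test was made between clusters or clades.

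The 4-month calls depended on single libraries. Leaving out a 4-month library leaves 1 library in its group, and fewer Serpin genes were then called. The same held for all genes, whose median log2 odds ratio stayed at 0.81 to 0.84, against 0.83 with all libraries. Without any 1 of the 12 libraries, 12 of the 47 genes stayed called: Serpina1e, Serpina3a, Serpina3h, Serpina11, Serpina12, Serpinb2, Serpinb3c, Serpinb5, Serpinb7, Serpinb8, Serpine2 and Serpini2. Without the libraries with few Y-linked calls, 1 mi5 and 1 WT library are left. The median log2 odds ratio was then 0.92 for the Serpin genes and 0.81 for all genes. Measured from the shift common to all genes, 0 Serpin genes were called in either direction, against 0% of all genes higher and 0.0353% lower.

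**Figure D4:**
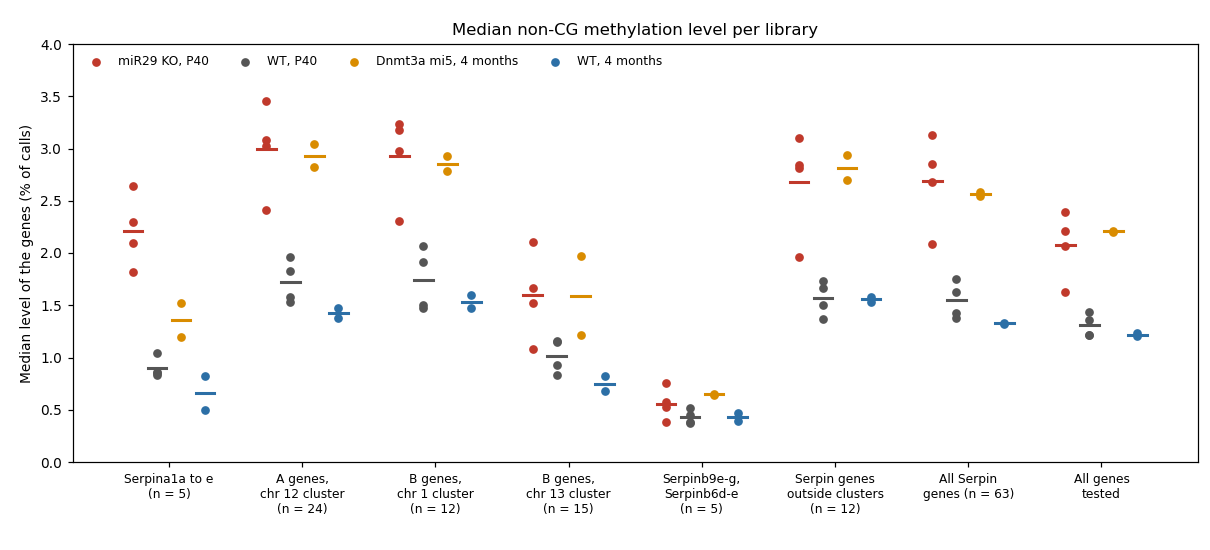
Median non-CG methylation level in percent of calls (vertical axis) over sets of Serpin genes and over all genes tested (horizontal axis) in each library (dots) of miR29 KO, P40 WT, Dnmt3a mi5 and 4-month WT, with bars at the group means. The set of Serpinb9e to Serpinb9g with Serpinb6d and Serpinb6e lies lowest in all 4 groups.

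Comparing the mutants, 46 genes were called in both, 10 at P40 only, 1 (Serpinb1c) at 4 months only and 6 in neither. The 6 were Serpind1 and the 5 low genes of chromosome 13. Among all genes 76.5% were higher in the KO and 58.8% in mi5. The share of all genes called in both was not counted, so these overlaps do not set the family apart. A call in 1 comparison and not the other does not show that the effects differed, so the difference of the log2 odds ratios was tested. It passed for 0 Serpin genes, as for 0% of all genes (limma-moderated fit, smallest adjusted p = 0.998). An unadjusted p under 0.05 in that fit was found for 0 Serpin genes and for 289 of all 19826 genes. The smallest unadjusted p of the Serpin genes, 0.0547 in the same limma-moderated fit, belonged to Serpina11. Its log2 odds ratio was 0.60 at P40 and 1.19 at 4 months. The largest difference, -1.37, was that of Serpinb9g (0.07 at P40 and 1.44 at 4 months), whose 4-month WT libraries had 11 and 6 methylated calls. Over the 63 genes the P40 and 4-month log2 odds ratios correlated with Pearson's r of 0.34 and Spearman's rho of 0.24; this is a description across genes that share libraries and sequence.

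Across the 63 genes the WT level at 4 months, which comes from libraries not used in the P40 comparison, correlated with the P40 difference in percentage points (r 0.59, rho 0.54). The log2 of that level hardly correlated with the P40 log2 odds ratio (r 0.03, rho 0.02). The log10 of mean calls per gene and the P40 log2 odds ratio had r of -0.25 and rho of -0.31.

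Between WT cortex at 4 months and at P40, 0 Serpin genes passed the test, against 0.131% of all genes higher and 0% lower at 4 months. Age and experiment cannot be told apart in this contrast. The WT levels of the 63 genes at the 2 ages correlated with r of 0.91 and rho of 0.89. The log2 odds ratio of 4 months over P40 was negative for 48 of 63 genes and positive for 15. It was positive for 34.8% of all genes, so most genes shared the negative sign. Its median was -0.22 against -0.08 for all genes. An unadjusted p under 0.05 was found for 3 genes (limma-moderated fit; adjusted p = 1.0 in each). Serpinb1c had 0.679% and 0.821% at 4 months and 1.21%, 1.32%, 1.62% and 1.09% at P40 (log2 odds ratio -0.81). Serpina16 had 1.27% and 0.668% at 4 months and 1.38%, 2.08%, 1.61% and 1.46% at P40 (-0.75), and Serpina11 had 1.79% and 1.95% at 4 months and 2.45%, 3.07%, 2.70% and 2.37% at P40 (-0.51). In all 3 genes, which were picked by that p, the ages did not overlap. Over all 19826 genes, 462 had an unadjusted p under 0.05 in the same limma-moderated fit. How many of all genes had ages that did not overlap was not counted.

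The proteases, receptors and clients on which serpins act were looked at beside them. Of 27 such genes 26 were tested; Elane, neutrophil elastase, had too few calls. In the miR29 KO 22 of the 26 were higher and 0 lower (median log2 odds ratio 0.66), and in mi5 16 were higher and 0 lower (median 0.96). Among all genes 76.5% were higher in the KO (median 0.65) and 58.8% in mi5 (median 0.83), so the partners' shares lay near the general ones. Plat, the target of Serpini1, averaged 2.02% ± 0.322 in the KO and 1.27% ± 0.101 in WT (SD, n = 4 each; log2 odds ratio 0.69), and plasminogen (Plg), which it activates, 3.21% ± 0.563 in the KO and 1.99% ± 0.180 in WT (SD, n = 4 each; 0.71). C1ra and C1s1, the complement proteases that Serping1 inhibits, had log2 odds ratios of 1.11 and 0.98. Lrp1, the receptor that clears serpin complexes, had a lower level of 0.972% in the KO and 0.636% in WT (0.62), and the collagen genes Col1a1 and Col3a1, whose products need Serpinh1, had 0.66 and 0.80. The 4 not called at P40 were F9, Masp2, Prtn3 and Ctsl, the last with 0.808% in the KO and 0.936% in WT. Ctss, a cathepsin of microglia, was the 1 partner that differed between WT ages, at 4.31% at 4 months and 2.51% at P40 (log2 odds ratio 0.81, SE 0.14; limma-moderated fit, adjusted p = 0.00718).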

How the data were processed

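Cortex DNA from 12 libraries was bisulfite sequenced; per the labels' protocols, unmethylated lambda DNA was added to follow conversion, whose rates played no role here. Per the submitters' processing notes, BSMAP and the mm9 genome were used, with no version given. Each deposited table gives, per RefSeq transcript, the count of methylated calls outside CG and an estimated count of all such calls, which is whole in 35.7% to 62.2% of values. How the authors obtained it was not given in the sources used here; it was rounded, and the level is the percentage of methylated calls.

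The tables have 36672 rows; 300 had no symbol in the RefSeq table (GRCm38.p6, used for names, gene order and sequences) and 1395 with repeated identifiers were left out. The row with the most calls stood for a gene, which gave 23882 genes, 19826 of them with at least 500 calls in every library. The 63 Serpin genes came from 83 rows, and 15 had several. The intervals of 13 overlap another gene. Counts cover all 63, and the values of 1 of them are not reported here. The members and gene lists were chosen with earlier results of these data known.

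Calls were fitted gene by gene with a quasi-binomial logistic model, 1 mean for each group and all 12 libraries together. limma 3.58.1 (squeezeVar, trend and robust) in R 4.3.3 moderated the dispersion. Adjusted p under 0.05 (Benjamini-Hochberg over 19826 genes) was the threshold. The model was tested on simulated data. Within groups every pair of libraries differed by more than sampling noise (mean chi-square per gene at least 2.73). Values are given, in full or in part, for 28 genes chosen by rule: 6 of brain and vessel, 8 of plasma, the 5 largest and 5 smallest effects of each mutant, and the 3 highest and 3 lowest P40 WT levels. For some of these only means or effects, or values of only 1 comparison, are given. Other genes named were chosen after their values were seen. Alternatives changed the scale, the pseudocount, the call minimum, centring, background, block, moderation, the row per gene and the libraries. Python 3.11.15, pandas 2.3.3, matplotlib 3.10.9 and Biopython 1.88 were used.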

Additional observations from a re-analysis of the deposited data

Results flagged for a closer look

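In 5 of 124 groups of 4 libraries (62 genes in both P40 groups) 1 library stood apart, its gap to the nearest other library, as a share of the group's range, being above Dixon's 95% critical value; chance gives about 1 in 20 groups. In 4 of them it was KO replicate 4, the library with the lowest mean level. Serpina3i had 2.75% in KO replicate 4, against 4.31% to 4.55% in the other KO libraries. Serpinb3a had 2.07% there, against 3.09% to 3.22%. Serpinb9b had 1.46% there, against 2.31% to 2.40%, and Serpinb9d 0.664%, against 1.09% to 1.17%. In WT, Serpinf1 had 2.09% in replicate 3, against 1.68% to 1.75% in the other WT libraries.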

How the results depend on the processing

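No Serpin gene was called lower in either mutant under any setting run. The P40 count of 56 stayed between 50 and 57 under the scales, pseudocount, call minimums (fewer members at 2000 calls), background subtraction, block, moderation and choice of row, was 55 without the libraries with few Y-linked calls and 55 to 61 without single libraries. The 4-month count of 47 was 35 to 56 under the same settings, 0 without the libraries with few Y-linked calls and 16 to 54 without single libraries. Leaving out the libraries with few Y-linked calls, or any single 4-month library, leaves a 4-month group with 1 library. Fewer of all genes were then called at 4 months too. Their median log2 odds ratio stayed at 0.81 to 0.84, against 0.83 with all libraries. The low 4-month counts therefore do not set the Serpin genes apart. Removing the shift common to a library's genes left 0 Serpin genes called in both comparisons after centring. Of all genes, centring left 0 called at P40, and 1 higher and 2 lower at 4 months. With the offset, added after the data were seen, 3 Serpin genes were called at P40 and 0 at 4 months. By construction these settings ask another question. At P40 the deviations of libraries with the same replicate number correlated at -0.05 to 0.11, and those with other numbers at -0.14 to 0.21. With 2 libraries a group, the 4-month values of -0.09 and 0.09 mirror each other by construction. These correlations cannot tell whether samples were paired. A replicate block gave 57 and 50 called. The counts for the difference between mutants and for age were 0 under every setting run; the block was not run for age, nor own groups for the difference.

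The median log2 odds ratio at P40 (0.77) was 0.10 after centring, 0.084 with the offset, 0.68 to 0.86 without single libraries and 0.61 to 0.84 under the other settings. The 4-month median of 0.97 was 0.90 at a pseudocount of 0.1%, 0.73 at 0.5%, 1.02 after background subtraction, 0.92 without the libraries with few Y-linked calls, 0.092 after centring, 0.10 with the offset and 0.87 to 0.98 without single libraries.

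Relative to the common shift some named genes lay below 0, with none called lower; for the rest of this paragraph values are log2 changes. After centring they were, at P40, -0.059 for Serpina10, -0.067 for Serpina11, -0.14 for Serpina3i, -0.28 for Serpinb1c, -0.14 for Serpinb6d, -0.32 for Serpinb6e, -0.28 for Serpinb9e, -0.16 for Serpinb9f, -0.60 for Serpinb9g, -0.15 for Serpinc1, -0.25 for Serpind1, -0.0078 for Serpinf1 and -0.18 for Serpini1, and at 4 months -0.42 for Serpina10, -0.22 for Serpina1b, -0.11 for Serpina3f, -0.069 for Serpina3n, -0.23 for Serpina7, -0.69 for Serpinb6d, -0.67 for Serpinb9e, -0.31 for Serpinb9f, -0.094 for Serpinc1, -0.25 for Serpind1, -0.37 for Serpinf2, -0.082 for Serping1 and -0.078 for Serpini1. With the offset they were, at P40, -0.07 for Serpina10, -0.091 for Serpina11, -0.15 for Serpina3i, -0.31 for Serpinb1c, -0.078 for Serpinb6d, -0.32 for Serpinb6e, -0.18 for Serpinb9e, -0.12 for Serpinb9f, -0.62 for Serpinb9g, -0.18 for Serpinc1, -0.22 for Serpind1 and -0.20 for Serpini1, and at 4 months -0.40 for Serpina10, -0.18 for Serpina1b, -0.092 for Serpina3f, -0.10 for Serpina3n, -0.28 for Serpina7, -0.65 for Serpinb6d, -0.72 for Serpinb9e, -0.29 for Serpinb9f, -0.10 for Serpinc1, -0.24 for Serpind1, -0.37 for Serpinf2, -0.11 for Serping1 and -0.082 for Serpini1. After background subtraction Serpinb9g at P40 was -0.23 and Serpinb6d at 4 months -0.15. Without the libraries with few Y-linked calls these were -0.075 and -0.81. Without single libraries Serpinb9g at P40 ran from -0.13 (without KO replicate 3) to 0.17, Serpinb6d at 4 months from -0.62 (without mi5 replicate 1) to 0.80, and Serpina7 at 4 months from -0.096 (without WT replicate 2) to 1.27. The cause of these reversals was not tested beyond the settings' own construction. At levels below about 1% few methylated calls stand behind each value, and what part this had in the reversals was not tested.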
